A study of Mus musculus with 2 samples.

Results

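The genes of MHC class I antigen presentation were followed in cerebellar sections with tumors grown from HP breast tumor organoids. The set holds 10 genes taken by name: *B2m*, *H2-K1*, *H2-D1*, *Tap1*, *Tap2*, *Tapbp*, *Psmb8*, *Psmb9*, *Psmb10* and *Nlrc5*. All 10 were listed once in the gene tables of both sections, among 19465 genes. The rule names genes and uses no measured value, but the genes were chosen with earlier results of these data known.

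MHC class I molecules show short peptides from inside the cell to CD8 T cells. A heavy chain, *H2-K1* or *H2-D1* in these mice, pairs with the light chain *B2m*. Peptides are cut by the proteasome, whose interferon-induced catalytic subunits *Psmb8*, *Psmb9* and *Psmb10* replace *Psmb5*, *Psmb6* and *Psmb7*. The transporter *Tap1* and *Tap2* moves the peptides into the endoplasmic reticulum, where tapasin, encoded by *Tapbp*, holds the transporter and the empty heavy chain together. *Nlrc5* is the transactivator that acts on class I promoters. Healthy neurons are known for low class I levels, whereas microglia, macrophages and endothelium carry more.

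The series held 2 biological replicates, 1 formalin-fixed section of 5 µm each, with no treatment, and no section of an uninjected brain was analysed. Both mice carried HP organoids, made from mammary tumors that adenoviral Cre had started in mice with the HER2 V777L and PIK3CA H1047R alleles. They were labelled with luciferase and injected into the cerebellum of C57BL/6J mice, 5-month-old per the methods. The sample titles differ, HP-F1 for section 1 and HP-B6 for section 2, while the genotype HP is the same. The sources used here do not say what F1 and B6 stand for, and whether the organoids share the H2 alleles that the *H2-K1* and *H2-D1* probes would read was not tested. The Visium CytAssist assay read probes against mouse transcripts on an array of spots, each of which can hold several cells, and counted them as UMIs. Section 1 had 63986887 UMIs over 3406 spots and section 2 had 71878333 UMIs over 4017 spots. The 3096 barcodes found in both sections follow from the common array layout and are not shared cells.

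Regions were drawn from the share of UMIs that 30 neuronal and glial genes took in each spot, with none of the 10 genes in that list. Connected groups of at least 50 neural-poor spots made the tumor masses, 1 of 763 spots in section 1 and 2 with 838 and 94 spots in section 2. The tumor-side edge was the 2 outermost rings of spots of a mass, and the neural-side edge the first 2 rings around it. Spots further in were tumor and spots further out neural, a region that holds all remaining brain on the array. In section 1 the regions held 608 tumor, 155 tumor-side edge, 133 neural-side edge and 2417 neural spots, against 578, 354, 256 and 2760 in section 2.

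The masses of the 2 sections differed in their cell markers, which bears on each value below. The 7 epithelial markers, among them *Epcam* and *Krt8*, summed to 12134 counts per 1000000 UMIs after TMM scaling (CPM) in the tumor of section 2 and to 56.9 CPM in that of section 1, where *Epcam* was at 7.03 CPM and *Krt8* at 25.4 CPM. The 6 fibroblast markers, among them *Col1a1*, summed to 59869 CPM in section 1 and 474 CPM in section 2. The 6 T and NK cell markers reached 241 and 10.1 CPM and the 8 macrophage markers 7208 and 1486 CPM. No gene of these lists was at 0 in either tumor. The neural-poor mass of section 1 thus lacked the epithelial level that the tumor of section 2 had, and it is called tumor here by its place in the rule. Fewer cells of a type and less RNA per cell cannot be told apart in such spots.

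The 10 genes lie on chromosomes 2, 8 and 17 of GRCm38. *B2m* is at chr2:122147687-122153082, *Psmb10* at chr8:105935728-105938392 and *Nlrc5* at chr8:94434335-94527272. The other 7 lie within the MHC region of chromosome 17, from *Tapbp* at chr17:33919478-33929290 and *H2-K1* at chr17:33996012-34000619 to *H2-D1* at chr17:35263094-35267497. Between them stand *Psmb9* at chr17:34182030-34187330, *Tap1* at chr17:34187556-34197225, *Psmb8* at chr17:34198195-34201454 and *Tap2* at chr17:34204479-34216321. *Tap1* and *Psmb9* run in opposite directions from starts with 225 bases between them.

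RefSeq promoters were found for 8 of the 10 genes, as the 250 bases before each annotated start. Class I promoters are known to carry an interferon-response element upstream of an X2 box, TGACG, and a Y box, CCAAT or ATTGG on the other strand, where the factors that *Nlrc5* joins are bound. Those letters are shown for the light chain and for both heavy chains, either of which pairs with it in a class I complex. Each stretch is 105 bases of GRCm38.p6, written 5′ to 3′ on the strand of the gene. The 2 annotated starts used for *H2-K1* lie inside the gene span given above, and so does its stretch. Capitals mark, in order, a match to GAAANNGAA or GAANNGAAA on either strand, the X2 letters TGACG and the Y letters ATTGG.
B2m, chr2:122147544-122147648, plus strand: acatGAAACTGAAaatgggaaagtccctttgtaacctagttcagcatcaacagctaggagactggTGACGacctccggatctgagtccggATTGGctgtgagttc
H2-K1, chr17:34000349-34000453, minus strand: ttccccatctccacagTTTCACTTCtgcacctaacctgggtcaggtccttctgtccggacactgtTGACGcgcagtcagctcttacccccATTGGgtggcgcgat
H2-D1, chr17:35262928-35263032, plus strand: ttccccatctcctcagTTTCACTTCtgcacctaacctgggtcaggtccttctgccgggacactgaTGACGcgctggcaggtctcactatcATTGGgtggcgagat

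In all 3 stretches the first base of TGACG stood 25 bases before the first base of ATTGG. *H2-K1* and *H2-D1* were identical at 93 of the 105 positions, and *B2m* matched *H2-K1* at 44. TGACG followed by ATTGG at that step occurred in 3 of the 8 members with a promoter and in 0.0548% of 32851 promoter windows, and this search was chosen after the member promoters had been seen. TGACG alone occurred in 5 of the 8 members against 17.8% of windows, and CCAAT in 6 of 8 against 33.8%, each on either strand. The windows of *Tap1* and *Psmb9* overlap, and the same bases gave the TGACG match and the CCAAT match of both, so these members are not independent. GAAANNGAA occurred in 1 of 8, *B2m*, against 7.13% of windows. GAANNGAAA, also searched for after the promoters had been seen, occurred in *H2-K1* and *H2-D1* against 6.31%. These are matches of letters and not measured sites.

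All 10 genes were higher in the tumor than in the neural region in the fit, and 7 of them passed the test. The levels of the light chain ran in opposite order across the border in the 2 sections, as did those of the heavy chains. Each fold change below is on the log2 scale from edgeR with the section as a block, and each level is in CPM.

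**Figure D1:**
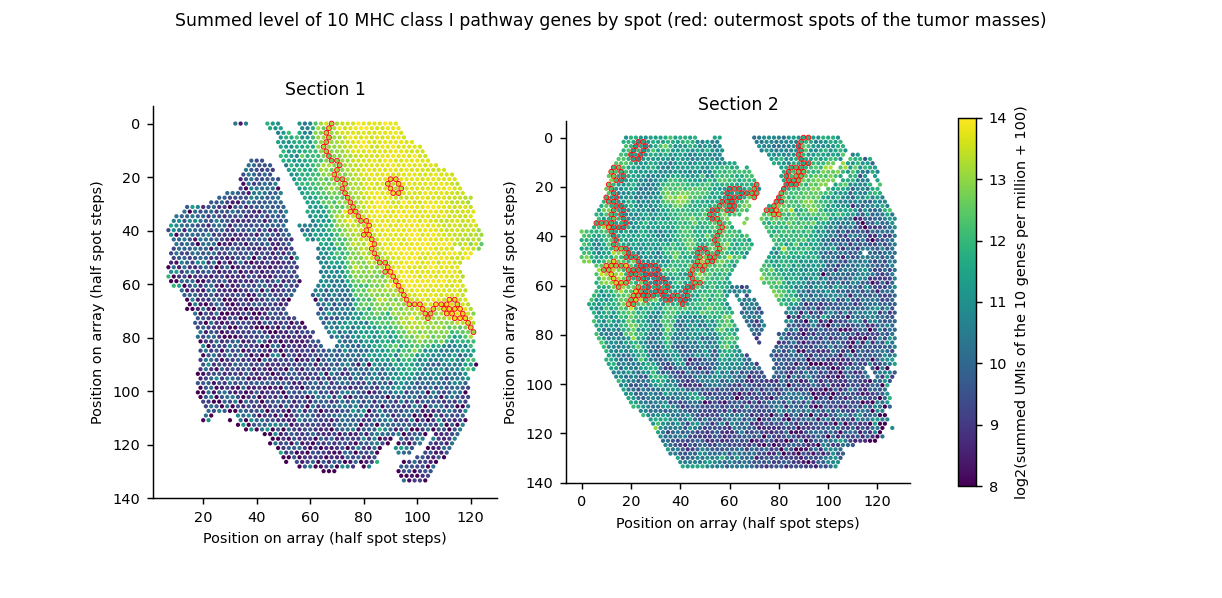
Summed UMIs of the 10 genes per 1000000 UMIs of each spot, plus 100, on a log2 color scale from 8 to 14, at the position of each spot on the array. Red circles mark the outermost spots of the tumor masses. The mass of section 1 is high throughout, while that of section 2 is dimmer, with high spots along parts of its border.

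*B2m* was at 8511 CPM in the tumor of section 1, 7030 at the tumor-side edge, 5042 at the neural-side edge and 890 in the neural region. In section 2 the same regions had 1651, 1870, 2353 and 854 CPM. Taken over the whole neural region, the levels of the 2 sections were close to each other, and the tumor levels lay 5.16-fold apart. In section 1 the level fell from the tumor outwards, whereas in section 2 its highest region was the neural-side edge. *B2m* was higher in the tumor than in the neural region, with a log2 fold change of 2.04 ± 0.60 (SE) and an adjusted p of 0.047. For both edge regions against neural it was 1.89 ± 0.54, adjusted p = 0.055, which misses the threshold.

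*H2-K1*, a classical heavy chain, was at 923, 756, 495 and 81.4 CPM from the tumor to the neural region of section 1. Section 2 had 252, 253, 295 and 82.3 CPM. Its neural levels had a ratio of 0.989 between the sections. *H2-K1* was called in the tumor, 2.52 ± 0.51 above neural with an adjusted p of 0.014, and at the edge, 2.24 ± 0.46 with an adjusted p of 0.021.

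*H2-D1*, the other classical heavy chain, was at 1576, 1290, 865 and 165 CPM in section 1 and at 719, 818, 985 and 284 CPM in section 2. It was the member whose tumor levels were nearest between the sections, 2.19-fold apart, and the one with the lowest neural ratio, its level in section 1 being 0.579 of that in section 2. The neural level was also lower in section 1 for *Tapbp*, *Psmb10*, *Tap2* and, by little, *H2-K1*. *H2-D1* was called in the tumor with 2.29 ± 0.51 and an adjusted p of 0.020, and at the edge with 2.1 ± 0.46 and an adjusted p of 0.025. *H2-K1*, *H2-D1* and the H2-Q and H2-T genes are close relatives, so that probes could take counts from one another.

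**Figure D2:**
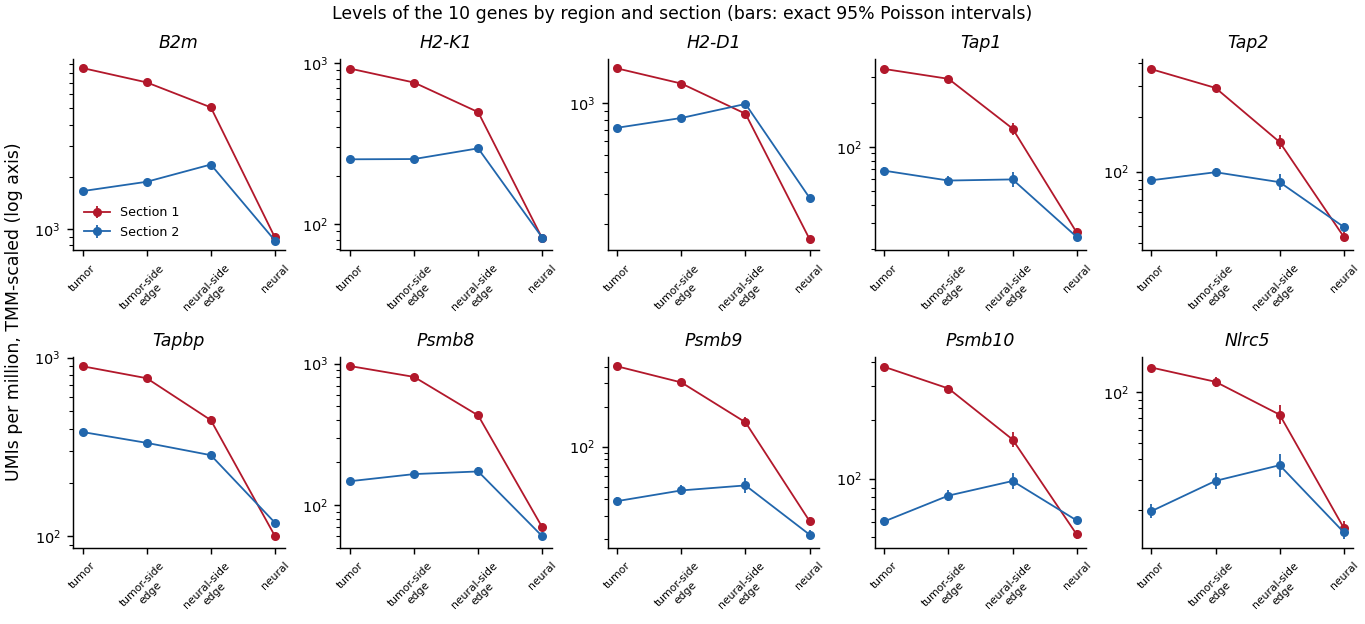
Level of each gene in CPM on a log axis in the tumor, both edges and the neural region, with section 1 in red and section 2 in blue. Bars are exact 95% Poisson intervals, which cover counting error only. Over the whole neural region the level of section 1 is 0.579 to 1.27 of that of section 2. In the tumor the sections lie 2.19 to 10.4-fold apart.

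*Tap1*, a subunit of the peptide transporter, was at 339 CPM in the tumor of section 1, 290 and 133 CPM at its edges and 26 CPM in the neural region. Section 2 had 68.7, 58.9, 59.9 and 24.3 CPM. It was among the 2 members whose highest region was the tumor in both sections. The tumor was 2.50 ± 0.61 above neural with an adjusted p of 0.027. The edge value of 1.98 ± 0.55 had an adjusted p of 0.050006, just above the threshold.

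*Tap2*, its partner subunit, was at 370, 291, 146 and 43.5 CPM in section 1 and at 89.6, 99.2, 87.4 and 49.4 CPM in section 2. The levels at both edges and in the tumor of section 2 thus lay close together. The tumor was 1.93 ± 0.56 above neural with an adjusted p of 0.044, and the edge value of 1.47 ± 0.49 did not pass with an adjusted p of 0.083.

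*Tapbp* was at 895, 768, 447 and 101 CPM in section 1 and at 384, 334, 285 and 119 CPM in section 2. It was the other member that was highest in the tumor of both sections, and it fell outwards in each of them. It had the lowest adjusted p of the set against neural, 0.0094 in the tumor with 2.36 ± 0.41 and 0.019 at the edge with 1.89 ± 0.37. In the tumor of section 2 its level was 3.22-fold that of the neural region, the highest such ratio of the 10 genes there.

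*Psmb8*, the immunoproteasome subunit that replaces *Psmb5*, was at 961, 805, 430 and 69.6 CPM in section 1 and at 147, 166, 173 and 60.2 CPM in section 2. It was called in the tumor with 2.47 ± 0.65 and an adjusted p of 0.033, and at the edge with 2.14 ± 0.58 and an adjusted p of 0.047.

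*Psmb9*, which replaces *Psmb6*, was at 404, 306, 153 and 27.4 CPM in section 1 and at 38.8, 46.7, 51.0 and 21.6 CPM in section 2. Its ratio of tumor to neural was the highest of the 10 genes in section 1, 14.8, and 1.79 in section 2. The tumor levels lay 10.4-fold apart between the sections, also the largest gap of the 10. With 2.29 ± 0.77 it missed the threshold, adjusted p = 0.067.

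*Psmb10*, which replaces *Psmb7*, was at 377, 291, 159 and 51.6 CPM in section 1 and at 60.2, 81.8, 97.2 and 60.9 CPM in section 2. The tumor and the neural region of section 2 overlapped within counting error, with 95% intervals of 56.9 to 63.6 and 58.2 to 63.7 CPM. The fitted difference of 1.41 ± 0.72 did not pass, with an adjusted p of 0.17.

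*Nlrc5* was at 140, 115, 73.5 and 15.7 CPM in section 1 and at 19.7, 29.8, 36.9 and 14.8 CPM in section 2. It rested on the lowest counts of the set, from 165 UMIs at the neural-side edge of section 2 to 4298 in the tumor of section 1. The tumor of section 2 was 1.33-fold its neural region and the neural-side edge 2.50-fold. The tumor difference of 1.79 ± 0.67 did not pass, with an adjusted p of 0.090, nor did the edge difference of 1.72 ± 0.60, with an adjusted p of 0.091.

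Against the background of all 19192 genes tested, 18.4% were called higher and 19.2% lower in the tumor than in the neural region. Of the 10 genes, 7 were called higher and 0 lower, with 9 at an unadjusted p under 0.05. Their median log2 fold change was 2.29, and that of all genes was -0.14. At the edge against neural, 13.1% of all genes were called higher and 14.1% lower. Of the 10 genes, 4 were called higher there, *H2-K1*, *H2-D1*, *Tapbp* and *Psmb8*, and 0 lower. Their median was 1.89 beside -0.08 for all genes. With only the neural spots at rings 3 to 10 as the neural region, the 7 calls became 1, *Tapbp*, and the 4 calls became 0. Summing both edges into 1 library left 3 and 0 calls. The shares of all genes above belong to the main setting. Of all genes, 2465 and 2838 were called at the edge under these 2 settings, beside 5227 in the main one. For the tumor the counts of all genes under them are not reported here, so those member counts lack a background share.

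**Figure D3:**
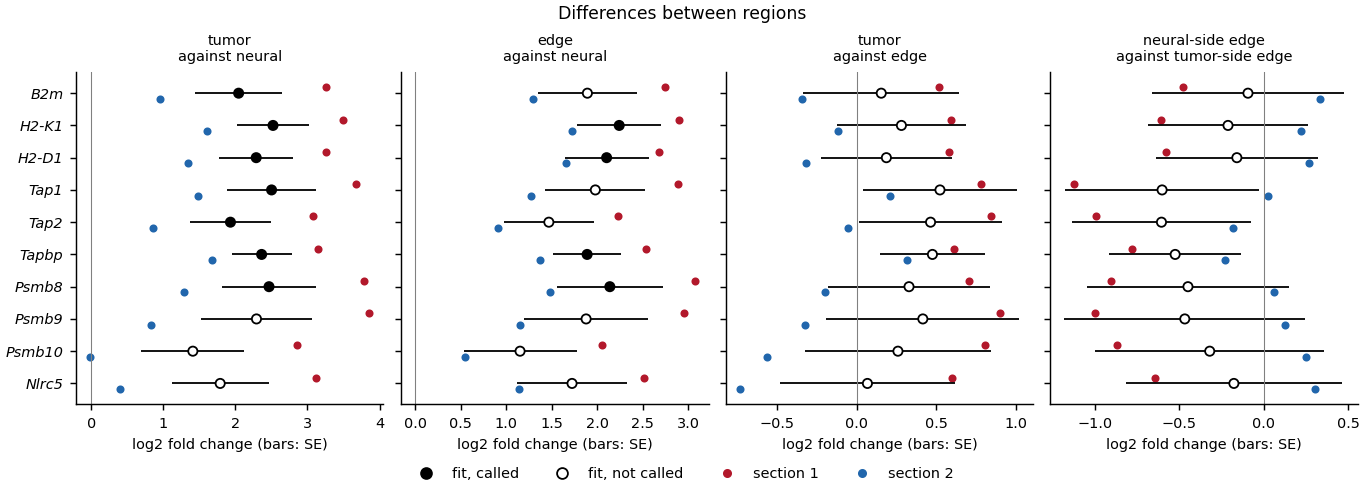
Log2 fold change of each gene in 4 comparisons of regions. Black circles are the edgeR fit over both sections with its SE, filled where the adjusted p was under 0.05, and the red and blue points are sections 1 and 2 alone. The sections lie on the same side of 0 against neural, except *Psmb10* in the tumor of section 2, and on opposite sides for most genes between tumor and edge.

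Tumor and edge were not separated by the test for any of the 10 genes, of which 0 were called, with 0 at an unadjusted p under 0.05 and 0 by DESeq2. Among all genes, 0.234% were called higher in the tumor and 2.78% lower. The fitted values lay between 0.07 for *Nlrc5* and 0.52 for *Tap1*, with a median of 0.30 beside 0.01 for all genes. The sections alone differed in direction. In section 1 the tumor was above both edges for all 10 genes. In section 2 it was below the mean of the edges for 8 genes, by 0.74 on the log2 scale for *Nlrc5* and 0.56 for *Psmb10*, and above it for *Tap1* and *Tapbp*.

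The neural-side edge against the tumor-side edge gave 0 calls among the 10 genes and 0% of all genes in either direction by edgeR, although 3486 genes had an unadjusted p under 0.05 and DESeq2 called 1309, 0 of them members. The median of the 10 genes was -0.38 beside -0.02 for all genes. In section 1 the neural-side edge was at 0.458 to 0.717 of the tumor-side edge. In section 2 it was at 0.854 to 1.26, above 1 for 8 genes and below 1 for *Tap2* and *Tapbp*.

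The sections themselves were set side by side with no test, since each title had 1 section. In the tumor the level of section 1 was 2.19 to 10.4-fold that of section 2, with a median of 5.04 over the 10 genes. At the tumor-side edge the ratio was 1.58 to 6.54 with a median of 3.66, and at the neural-side edge 0.878 to 3.0 with a median of 1.84. In the neural region it was 0.579 to 1.27 with a median of 1.02. The median gap between whole regions thus narrowed from the tumor outwards. Within the neural region the order of the sections turned with distance. In CPM without TMM scaling, section 1 was higher for each gene in ring 3. From ring 20 on it was lower for each, for some by little. *B2m* was at 4449 CPM in section 1 and 1977 in section 2 in ring 3, and at 279 and 446 from ring 20 on. The fibroblast, macrophage and T and NK cell markers of the tumor were also higher in section 1 and the epithelial markers higher in section 2, and the part of each in the gap was not tested.

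The neural levels were not flat but depended on the distance from the border, counted in rings of spots and given in CPM without TMM scaling. In the first neural ring of section 1 the level of each gene was 4.53 to 28.3-fold the level beyond ring 20, with a median of 17.2 over the 10 genes. The median ratio was 11.5 at ring 3, 6.85 at ring 6 and 3.0 at ring 10. In section 2 the medians were 4.90 at ring 1, 4.22 at ring 3, 4.30 at ring 6 and 2.80 at ring 10. By ring 10 the median ratios of the 2 sections, each to its own level beyond ring 20, were thus near each other, although their masses differed. The levels themselves were lower in section 1 at ring 10 for each gene but *Nlrc5*, such as 154 against 365 CPM for *H2-D1*.

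*B2m* in section 1 fell from 6112 CPM in ring 1 to 2343 in ring 6, 1037 in ring 10 and 279 from ring 20 on. In section 2 it was at 2467, 1874, 1467 and 446 CPM. *Psmb8* in section 1 was at 553 CPM in ring 1, 215 in ring 6, 84.9 in ring 10 and 19.5 from ring 20 on, and in section 2 at 180, 157, 129 and 23 CPM. Both genes started lower in section 2 and fell by less over these rings. *Psmb10* of section 2 peaked in ring 7, at 117 CPM, and *Nlrc5* in ring 5, at 43.9 CPM, outside the neural-side edge. Among its neural rings *Tap1* was highest in ring 6, at 66.2 CPM, *Tap2* in ring 5, at 92.5 CPM, and *Psmb9* in ring 2, at 65.8 CPM. These maxima rest on 46 UMIs for *Nlrc5* to 100 for *Psmb10*. Ring 1 held 98.7 CPM of *Psmb10*, 35.4 of *Nlrc5*, 58.3 of *Tap1*, 86.1 of *Tap2* and 44.1 of *Psmb9*. Whether these differences between rings exceed counting error was not tested.

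**Figure D4:**
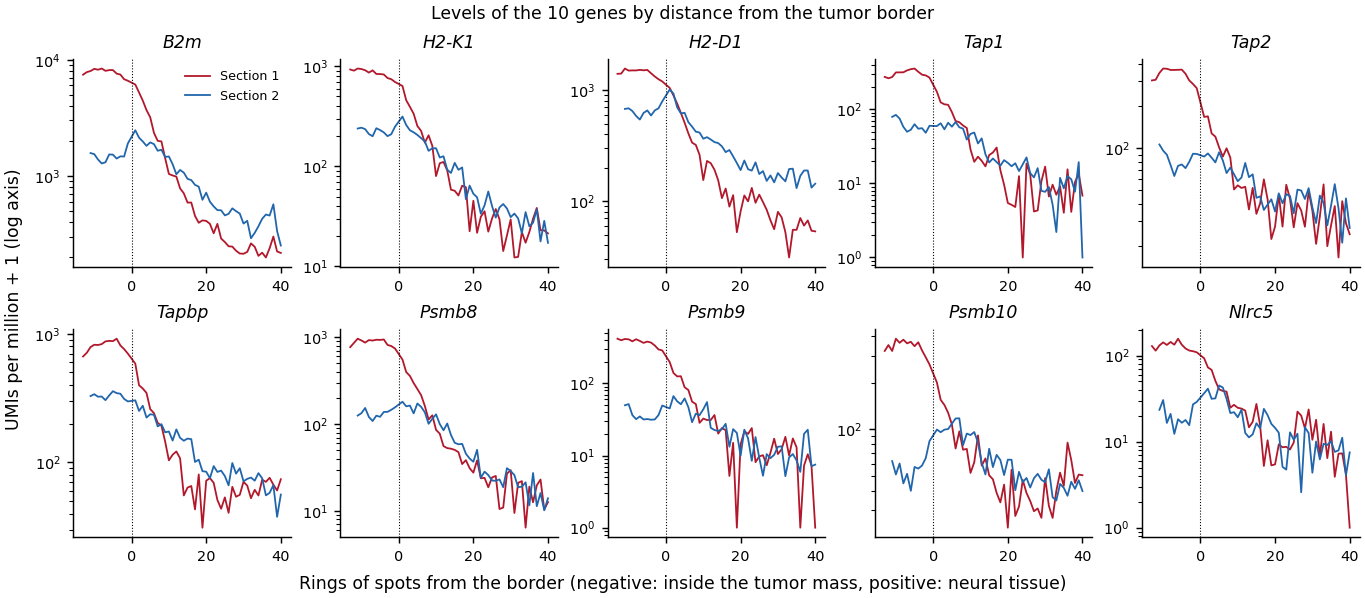
Level of each gene in CPM plus 1, without TMM scaling, on a log axis against the ring of spots from the border, negative inside the mass and positive in neural tissue. Section 1 is in red and section 2 in blue. The levels are lower at ring 20 than in ring 1 for all 10 genes in both sections. In section 2 *Psmb10*, *Tap1*, *Nlrc5*, *Tap2* and *Psmb9* are highest among the neural rings in rings 7, 6, 5, 5 and 2. These maxima rest on 46 to 100 UMIs. *Tap2* of section 1 is at 166 CPM in ring 1 and 168 in ring 2.

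Markers of several cell types moved with these profiles, and their part in them was not tested. The macrophage markers peaked in ring 2 of section 1, at 8102 CPM, and in ring 1 of section 2, at 5623 CPM, and were 10.1-fold and 6.12-fold their level beyond ring 20 at ring 6. The 6 microglia markers, among them *Tmem119* and *P2ry12*, peaked in ring 3 of section 1 and ring 5 of section 2, and were 5.40-fold and 3.62-fold at ring 6. The epithelial markers of section 2 fell from 3418 CPM in ring 1 to 444 in ring 6 and 253 in ring 10. The T and NK cell markers of section 1 fell from 125 CPM in ring 1 to 62.5 in ring 6 and 26.6 beyond ring 20, and its fibroblast markers from 22700 to 1225 and 443 CPM. The T and NK cell markers of section 2 were at 23.5 CPM in ring 1, 35.9 CPM in ring 6 and 27.3 CPM beyond ring 20.

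Spots of the same region were then ranked by a marker list and the 25% with the highest and the lowest shares were compared, as a description of spots that share a section. At the tumor-side edge of section 2, the summed 10 genes were at 5414 CPM in the spots richest in macrophage markers and 2401 CPM in the poorest. Ranked by epithelial markers, the richest spots there had 2463 CPM and the poorest 5065 CPM. The 2 rankings thus ran in opposite directions at that edge. At the tumor-side edge of section 1 the contrasts were smaller, 11662 against 9689 CPM by macrophage markers and 11513 against 10881 CPM by epithelial markers, and both ran the same way. The epithelial ranking of section 1 rested on only 310 UMIs over 155 spots. Macrophage markers were not alone in this. By T and NK cell markers this edge had 13066 against 9315 CPM in section 1 and 4241 against 3208 CPM in section 2. By microglia markers it had 11575 against 10700 CPM in section 1 and 5449 against 2609 CPM in section 2. The T and NK cell list had only 182 UMIs over the 354 spots of this edge in section 2. Its poorest spots there were thus drawn in barcode order from spots without such a UMI. Fibroblast and endothelium markers ran the other way at this edge in section 1, with 10759 against 11597 CPM and 10546 against 12237 CPM. In section 2 these 2 lists gave 3791 against 3336 CPM and 3459 against 3369 CPM. The genes did not follow the rankings of section 2 alike. *B2m* was at 2932 CPM in the macrophage-rich spots and 1083 CPM in the poor ones, and *Psmb10* at 99.2 and 47.2 CPM. *Tap1* was at 49.6 and 46.4 CPM and *Tapbp* at 349 and 305 CPM in the same spots. The median macrophage-rich spot held 28780 UMIs and the median poor one 41416.

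Within the tumor of section 2 the spots poorest in macrophage markers had 2718 CPM of the 10 genes, beside 3317 CPM in the richest. The macrophage markers of these spots were at 497 and 2497 CPM. In the tumor of section 1 the poorest and richest spots had 12189 and 14139 CPM. Ranked by epithelial markers, the richest spots in the tumor of section 2 had 2700 CPM and the poorest 3331 CPM. By microglia markers the richest there had 3482 CPM and the poorest 2721 CPM. By macrophage markers the contrast was larger in the neural region, 4148 against 490 CPM in section 1 and 3589 against 691 CPM in section 2, where rich spots also lie nearer the border. Microglia markers gave nearly the same there, 4143 against 540 CPM in section 1 and 3383 against 717 CPM in section 2. The fibroblast, endothelium, T and NK cell and epithelial lists ran the same way with smaller contrasts. These went from 3896 against 688 CPM by fibroblast markers in section 1 to 1662 against 1531 CPM by T and NK cell markers in section 2. The T and NK cell list had 747 UMIs over the 2760 neural spots of section 2 and 807 over the 2417 of section 1. The epithelial list had 501 in section 1. For these lists the poorest spots were thus drawn in barcode order from spots without a UMI of the list. Across the spots of the tumor-side edge of section 2, the log level of the 10 genes correlated with the macrophage markers at r = 0.73 and with the epithelial markers at r = -0.62 (354 spots of 1 section, which share the library). In the same region of section 1 (155 spots) r was 0.36 for the macrophage, 0.15 for the epithelial and 0.54 for the T and NK cell markers. The 7 epithelial markers had 310 UMIs there, against 99976 in section 2. Their r in section 1 is thus not set against that of section 2. For microglia markers r was 0.53 in section 2 and -0.03 in section 1, and for oligodendrocyte markers 0.44 and -0.48. With the log UMIs of the spot r was -0.36 in section 2 and 0.44 in section 1.

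The immunoproteasome subunits were also read against the constitutive subunits they replace. These ratios compare probes of different genes, so they are read between regions and not as the make-up of the proteasome. *Psmb8* over *Psmb5* was 7.30 in the tumor of section 1, 5.53 and 3.97 at the edges and 0.617 in the neural region. Section 2 gave 1.10, 1.18, 1.5 and 0.584. *Psmb5* itself kept between 103 and 146 CPM in all 8 libraries, so that the ratio moved through *Psmb8*.

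*Psmb9* over *Psmb6* was 2.32 in the tumor of section 1 and 0.194 in its neural region. In section 2 it was 0.111 in the tumor, 0.140 and 0.262 at the edges and 0.168 in the neural region. *Psmb10* over *Psmb7* was 1.63 and 0.253 in the tumor and neural region of section 1, and 0.191, 0.286, 0.447 and 0.258 from tumor to neural in section 2. *Psmb6* itself was at 351 CPM in the tumor and 129 CPM in the neural region of section 2. For both pairs the tumor of section 2 had the lowest ratio of its 4 regions and the neural-side edge the highest.

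**Figure D5:**
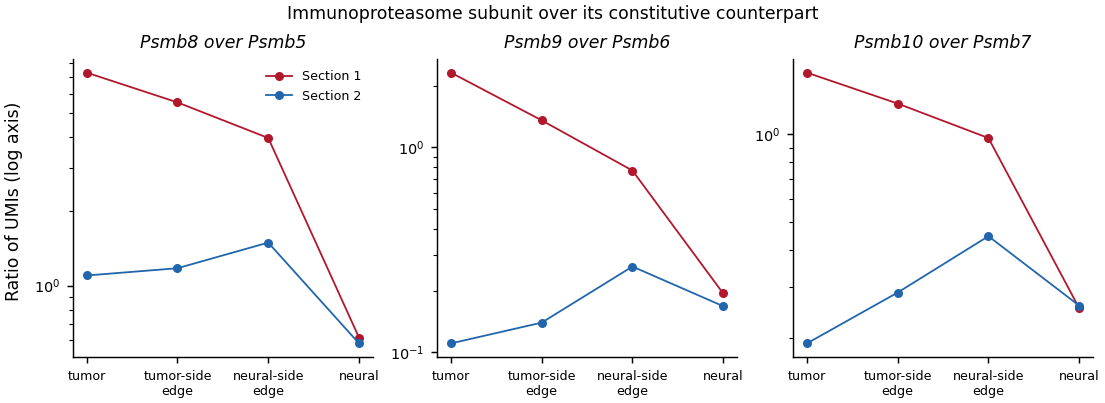
Ratio of the UMIs of each immunoproteasome subunit to those of the constitutive subunit it replaces, on a log axis, by region and section. In section 1 (red) the ratios fall from tumor to neural, and in section 2 (blue) they are highest at the neural-side edge.

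Of 75 further genes of the pathway, 71 were in the files and all 71 were tested. In the tumor against neural, 23 were called higher and 2 lower, beside 18.4% and 19.2% of all genes, with a median log2 fold change of 1.05. At the edge against neural, 25 were called higher and 1 lower, beside 13.1% and 14.1% of all genes, with a median of 1.0. Between tumor and edge and between the edges, 0 were called.

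Of 9 genes of peptide loading and trimming, 6 were called higher in both comparisons. In the tumor against neural these were *Sec61b* (2.20 ± 0.20) and *Sec61a1* (1.75 ± 0.30), of the channel through which heavy chains enter the endoplasmic reticulum, the peptide-trimming protease *Erap1* (1.88 ± 0.40), and the chaperones *Pdia3* (1.58 ± 0.24), *Calr* (1.36 ± 0.27) and *Hspa5* (1.18 ± 0.24). All but *Erap1* serve secreted and membrane proteins in general. *Erap1* was at 213 and 70.0 CPM in the tumors of sections 1 and 2 and at 32.7 and 31.9 CPM in the neural regions.

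Among 13 other class I and class I-like genes 1 was called higher in each comparison, below the share of all genes. This gene, *H2-T23*, which encodes the ligand of the NKG2A receptor, was higher in the tumor (2.70 ± 0.37, adjusted p = 0.0045) and at the edge (2.17 ± 0.34, adjusted p = 0.0098). It was at 424 and 311 CPM in the tumors and at 39.6 and 73.5 CPM in the neural regions, high in both sections. *H2-Q2* was called lower in the tumor (-0.86 ± 0.25), at 3.12 and 2.28 CPM there against 4.81 and 4.82 CPM in neural tissue. *H2-Q7*, close to *H2-Q6* in sequence, was at 380 CPM in the tumor of section 1 and 13.8 CPM in that of section 2, and did not pass the test (2.29 ± 1.10, adjusted p = 0.15).

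Of the other proteasome genes, 3 of 8 were called higher in both comparisons and 1 lower. *Psme1*, a subunit of the interferon-induced activator of the proteasome, was higher in the tumor (2.12 ± 0.27), at 433 and 267 CPM against 71.3 and 82.9 CPM in neural tissue. *Psme4* (0.94 ± 0.20) and *Psma3* (0.91 ± 0.15) were also higher. *Psme2*, the partner of *Psme1* in the activator, was lower (-1.74 ± 0.28), at 5.5 and 6.22 CPM against 17.4 and 22.1 CPM. A near-identical copy of *Psme2* exists in the mouse genome, and its counts are uncertain for that reason.

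Of 24 genes of interferon signalling and of the factors at class I promoters, 10 were called higher in the tumor and 11 at the edge, with 0 lower. *Irf1*, a transcription factor that interferon gamma induces, rose most of these in the tumor (3.18 ± 0.26, adjusted p = 0.0015), at 307 and 156 CPM against 26.2 and 21.5 CPM. The receptor genes *Ifngr1* (2.12 ± 0.50), *Ifnar1* (1.32 ± 0.30) and *Ifngr2* (1.08 ± 0.20) were higher, as were *Tyk2* (1.39 ± 0.15) and *Irf9* (1.24 ± 0.17). Of the promoter factors, *Nfya* (1.93 ± 0.16), a subunit that binds the Y box, *Nfkb1* (1.38 ± 0.17), *Rela* (1.05 ± 0.17) and *Creb1* (0.56 ± 0.16) were higher. *Nfyb* (0.34 ± 0.16) and the RFX subunits *Rfx5* (0.48 ± 0.31), *Rfxank* (-0.19 ± 0.19) and *Rfxap* (-0.18 ± 0.18) did not pass. *Irf8* (1.77 ± 0.49) and *Ifnar2* (1.27 ± 0.35) passed at the edge, and *Creb1* did not pass there.

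*Ifng*, which encodes interferon gamma, was at 4.52 and 0.380 CPM in the tumors, from 139 and 8 UMIs, and did not pass the test (0.90 ± 0.66, adjusted p = 0.32). *Cd8a* was at 23.7 CPM in the tumor of section 1 and 1.99 CPM in that of section 2, whose neural region had 3.62 CPM.

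Of 17 genes for cells that read class I and for ligands that curb them, 3 were called higher in the tumor, near the 18.4% of all genes, and 4 at the edge, beside 13.1%. *Lgals9*, a ligand of inhibitory receptors, was higher in the tumor (1.56 ± 0.16) and at the edge (1.71 ± 0.15). *Pirb*, an inhibitory receptor that binds class I, was at 116 and 30.4 CPM in the tumors and 69.5 and 70.2 CPM at the neural-side edges, and was higher in both comparisons (2.14 ± 0.57 and 2.28 ± 0.52). *Klrd1*, a partner chain of NKG2A, was higher in both (2.67 ± 0.55 and 2.70 ± 0.57) at low levels, 5.5 and 0.285 CPM in the tumors and 0.0315 CPM, 1 UMI, in the neural region of section 2. *Cd274*, which encodes PD-L1, passed at the edge (2.09 ± 0.44, adjusted p = 0.023) and not in the tumor (0.82 ± 0.48, adjusted p = 0.22), and it was not called between tumor and edge. It was at 62.3, 86.1, 125 and 18.2 CPM from tumor to neural in section 1 and at 13.9, 44.0, 74.7 and 16.5 CPM in section 2, highest at the neural-side edge in both.

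Genes whose profile was most like the mean of the 10 were sought over 128 bins of section and ring, among 9500 genes outside the lists, as a description of bins that share 2 libraries. Among the highest correlations were those of *Npc2* (r = 0.954), *Arhgdib* (0.951), *Hist1h1c* (0.948) and *Gnai2* (0.947), followed by *Vim*, *Ucp2*, *Tmsb4x*, *Cyba* and *Itgb5*. The members themselves had r between 0.871 for *Nlrc5* and 0.985 for *B2m*, each being part of that mean. In section 2 alone *Psmb10* and *Nlrc5* had the lowest values, 0.748 and 0.759.

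Between spots of 1 region the correlations of the members with each other were lower, but single spots can hold few UMIs of a member. At the neural-side edge of section 2 a spot held 0.64 UMIs of *Nlrc5* and 0.89 of *Psmb9* on average. The part of counting error in these r was not tested. Over the 45 pairs of members the median r was lowest there, 0.103. It was the highest of the 8 libraries at the tumor-side edge of section 1, 0.452. *B2m* and *H2-D1* were the most alike at the tumor-side edge of section 2, r = 0.78 over 354 spots. *Tap1* and *Psmb9*, whose starts are neighbors, had r of 0.31 in the tumor of section 1 and 0.23 in that of section 2. The median over all 45 pairs was 0.30 and 0.23 in the same regions, near the values of this pair.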

How the data were processed

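Per the labels, the authors ran Space Ranger 2.1.1 with mm10, and what they deposited are raw counts of UMIs for each gene and spot. Spots with under 500 UMIs or under 10 genes were left out, 91 and 18. Neural share was split in each section by Otsu's threshold, at 0.489% and 0.640% of UMIs. Neural-poor spots outside a mass, 2 and 51, entered no region. Each region of each section was summed to 1 library, 8 in all, with 2879333 to 33055444 UMIs, and only counting error is covered by 95% intervals. The main test was the quasi-likelihood test of edgeR 4.0.16 with TMM factors, filterByExpr, 3 residual degrees of freedom and Benjamini-Hochberg adjustment over 19192 genes. The section was a block, its regions being parts of 1 brain. The common dispersion was 0.0855 with it and 0.178 without. Named genes were the 10 members and each listed pathway gene called against neural, and others, such as *H2-Q7*, *Ifng*, *Cd8a*, *Nfyb* and the RFX genes, were named after their values were seen. The members and lists were chosen with earlier results of these data known. Alternatives included DESeq2 1.42.0, other scalings, filters, thresholds and region borders, and the steps were tested on simulated data. *Pomp*, *Ifnb1*, *Nfyc* and *Lilrb4a* of the pathway list were not used here, and some results are not reported here. The study's own clusters were not used here.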

Additional observations from a re-analysis of the deposited data

Results flagged for a closer look

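The 51 neural-poor spots of section 2 that lay outside its masses, which no comparison used, had 1296 CPM of the 10 genes (exact 95% Poisson interval 1203 to 1393, counting error only), beside 1639 CPM in the neural spots of that section, both without TMM scaling. The value was flagged because these spots entered no comparison, and it lay below that of the neural spots. The 3 choroid plexus markers took 207417 CPM in these spots and 398 CPM in the neural region. Such a share lowers the CPM of all other genes, and its part in the lower value was not tested. *B2m* was at 557 CPM there.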

How the results depend on the processing

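Each comparison rested on 2 sections. With the section as a block, the spread was that of the differences between regions from section to section. The part of depth in it was not tested. A section alone gave values with no test. Against neural, the 10 genes kept a positive value under each of 13 other settings. Members called in the tumor numbered 3 with no replicate block, 1 with neural rings 3 to 10 and 3 with the edge summed into 1 library. Members called at the edge numbered 9 with DESeq2, 2 with no replicate block, 0 with neural rings 3 to 10, 0 with the edge summed, 6 with RLE factors and 6 with an edge of 1 ring. Genes called in the tumor against neural numbered 4310 with no replicate block. Genes called at the edge numbered 3095 with no replicate block, 2465 with neural rings 3 to 10 and 2838 with the edge summed. The main setting called 7218 of all genes in the tumor and 5227 at the edge against neural. Counts of all genes against neural under the remaining settings are not reported here. The member counts under those settings, such as 9 with DESeq2, thus cannot be set against a background share. Genes called between tumor and edge numbered 2201 with DESeq2, 888 with an edge of 1 ring, 1409 with the neural threshold times 1.5, and 0 with an edge of 3 rings, the threshold divided by 1.5 or the edge summed. Between the edges DESeq2 called 1309. Scaled by library size alone, the direction turned between tumor and edge for *B2m* (-0.00053) and *Nlrc5* (-0.089), and between the edges for *B2m* (0.11), *H2-D1* (0.045) and *Nlrc5* (0.028). It also turned for *Nlrc5* between tumor and edge with the threshold divided by 1.5 (-0.030), and for *B2m* between the edges with that threshold (0.0034) and with an edge of 1 ring (0.017), and the cause was not tested. None of these 8 values passed the test. Section 1 and section 2 alone gave log2 values from -0.016 to 3.86 for tumor against neural, 0.55 to 3.07 for edge against neural, -0.74 to 0.90 for tumor against edge and -1.12 to 0.33 between the edges. The largest mass alone, an alternative chosen after seeing the data, gave 7, 5, 0 and 0 members called. Rings 3 to 10 hold fewer and nearer spots.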
